A study of Mus musculus with 8 samples.

Results

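*Tbk1*, *Irf3* and *Ifnb1* were followed through spleens of mice given R848, as 3 of the 84 pathway genes on a quantitative PCR plate of Toll-like receptor (TLR) signalling. They were chosen by name for their place in one pathway. R848 (resiquimod), a synthetic imidazoquinoline, activates TLR7, which senses single-stranded RNA in endosomes, and was dosed at 1 mg per kg per day over 7 days, against PBS (Mock). The 8 samples form 6 groups: C57BL/6 wild-type mice with Mock or R848 (2 experiments each), TLR7-/- mice with Mock or R848 (1 sample each) and IFNAR-/- mice, which lack the receptor for type I interferon, with Mock or R848 (1 sample each). Each sample is whole-spleen RNA pooled from 3 mice, and the labels give no age or sex. The wild-type table holds only the mean of its 2 experiments, so each strain has 1 value per treatment. In the tables used here no value has a replicate error, and differences are given without a test. The words "higher" and "lower" refer to these pools alone.

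TBK1 is a serine/threonine kinase related to the IkB kinases. It phosphorylates IRF3, which then enters the nucleus and, together with NF-kB and AP-1, switches on *Ifnb1*, the gene of interferon beta. TLR3 and TLR4 reach TBK1 through the adaptor TRIF (*Ticam1*), and cytosolic sensors of RNA and DNA reach it too. TLR7 and TLR9 signal through MyD88 and, in plasmacytoid dendritic cells, use mainly IRF7. IRF3 is present in resting cells and is controlled largely by phosphorylation, whereas *Ifnb1* is nearly silent at rest and is transcribed in short bursts. Neither *Irf7*, an interferon alpha gene nor a gene of the IFNAR receptor was among the genes measured.

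IRF3 and NF-kB are known to bind the promoter of *Ifnb1*, which is why its sequence is shown; no binding was measured here. RefSeq's promoter table for GRCm38.p6 held all 3 members. The stretch printed runs from base -165 to base -75 relative to the annotated start of *Ifnb1*, at chr4:88522869-88522959 on the minus strand, 5′ to 3′. Capitals mark matches to the core recognised by interferon regulatory factors, AANNGAAA, and to an NF-kB motif (GGGA, any 4 bases, CC), both searched on both strands.
Ifnb1: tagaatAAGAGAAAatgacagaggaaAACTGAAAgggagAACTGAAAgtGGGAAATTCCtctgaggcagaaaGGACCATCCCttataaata

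The window held 3 matches to AANNGAAA, all on the gene's strand, and the last of them ends at base -119. A match to the NF-kB motif, GGGAAATTCC, begins at base -116, so the 2 elements lie side by side without overlap. The other NF-kB match, from base -93 to base -84, is on the opposite strand. In the windows of *Tbk1* and *Irf3*, from 250 bases before to 50 bases after the annotated start, neither motif was found. AANNGAAA occurred in 23.9% and the NF-kB motif in 20.7% of 32851 RefSeq promoter windows of that length, so a match to either is common. The 10-letter GGGAAATTCC occurred in 0.110% of them, and a stricter motif for the interferon regulatory factors (GAAA, any 2 bases, GAAA) was absent from all 3 members and present in 3.44% of windows.

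Levels are delta-Ct values, in cycles: the threshold cycle (Ct) of a gene minus the mean Ct of *Hprt1*, *Hsp90ab1* and *Gapdh*. A lower delta-Ct is a higher level, and 1 cycle is a 2-fold difference. Readings above Ct 35 were set to 35, so each column has a highest possible delta-Ct, its detection limit. The Mock columns reached 13.15 in wild type, 15.10 in TLR7-/- and 12.43 in IFNAR-/-. The R848 columns reached 15.63 in TLR7-/- and 14.93 in IFNAR-/-. In wild-type R848 the limit was at least 16.67, the value of *Tlr5*, the lowest gene there. The reference genes came up later in Mock than in R848, by at least 3.52 cycles in wild type, 0.53 in TLR7-/- and 2.50 in IFNAR-/-, and the limit moved with them. Wild type and IFNAR-/-, with the larger gaps, also had more genes 2-fold higher with R848, 32 and 45 of 84, against 4 in TLR7-/-. Within each strain the gap goes with treatment, so its part in the responses cannot be told apart from that of R848. It was not tested. *Cd3e*, *Siglech* and *Adgre1*, defining markers of spleen cell types, were looked for and were not on the plate, so the tissue label was not checked. In whole tissue, fewer cells of a type and less RNA per cell cannot be told apart.

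**Figure D1:**
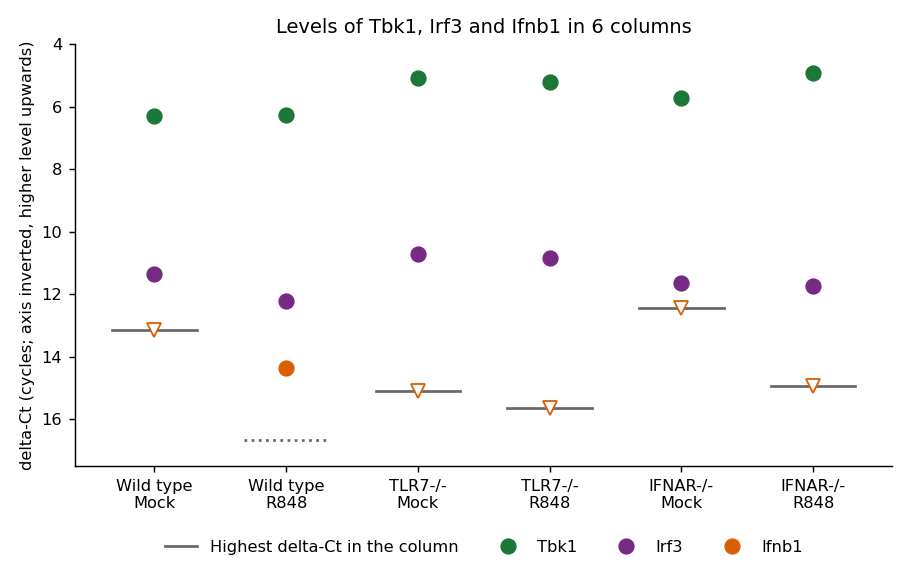
Delta-Ct in cycles (inverted axis) of *Tbk1*, *Irf3* and *Ifnb1* in the 6 columns, 1 value each. Filled circles are readings, open triangles are values at the Ct cap, and grey bars are the highest delta-Ct of each column (dotted where it is only a lower bound); *Tbk1* stayed between 4.93 and 6.30, *Irf3* between 10.70 and 12.22, and *Ifnb1* left the cap only in wild-type R848.

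*Tbk1*, the kinase, was read well above the limit in every column and differed by less than 2-fold between R848 and Mock against the 3 reference genes. In wild type its delta-Ct was 6.30 in Mock and 6.27 in R848, a log2 difference of 0.03. TLR7-/- spleens gave 5.10 with Mock and 5.23 with R848, a log2 difference of -0.13. IFNAR-/- spleens gave 5.73 with Mock and 4.93 with R848, 1.74-fold higher with R848 (log2 difference 0.80). None of the 3 reached 2-fold. IFNAR-/- R848 held the highest level of the 6 and wild-type Mock the lowest, 1.37 cycles apart.

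Against the 3 reference genes *Tbk1* lay nearest to 0 in wild type, where much of the plate was higher with R848. Its rank was similar in the 3 strains. Of the genes read in both columns, 49 of 77 in wild type, 50 of 78 in TLR7-/- and 44 of 69 in IFNAR-/- had a larger log2 difference. At 2-fold, 32 of 84 genes (38.1%) were higher and 11 (13.1%) lower in wild type. Among the 77 genes read in both wild-type columns, only 1 lay closer to 0 than *Tbk1*. In TLR7-/- 4 genes (4.76%) were 2-fold higher and 3 (3.57%) lower, and 12 of 78 lay closer to 0. In IFNAR-/- 45 genes (53.6%) were 2-fold higher and 2 (2.38%) lower. There the 0.80 of *Tbk1* was below the median of all 84 genes, 1.25, and 44 of 69 readable genes had a larger log2 difference. After centring on that median *Tbk1* stood at -0.45. The sign in wild type also depended on the reference: it was -0.25 with *Hprt1* alone and 0.55 with *Hsp90ab1* alone. Some scalings passed 2-fold. With the median gene of each column *Tbk1* stood at -1.20 in wild type and -1.25 in IFNAR-/-, and with *Hsp90ab1* alone at 1.20 in IFNAR-/-.

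*Irf3*, the transcription factor, was read late, close to the limit in the wild-type and IFNAR-/- Mock columns, and had log2 differences below 0 in all 3 strains against the 3 reference genes. In wild type its delta-Ct was 11.35 in Mock and 12.22 in R848, a log2 difference of -0.87, or 1.83-fold lower with R848. TLR7-/- spleens gave 10.70 with Mock and 10.83 with R848, a log2 difference of -0.13. IFNAR-/- spleens gave 11.63 with Mock and 11.73 with R848, a log2 difference of -0.10 that became 0.30 when *Hsp90ab1* was the only reference. None of the 3 reached 2-fold with the 3 reference genes. In wild type, 2-fold was passed with *Hprt1* alone (-1.15), with *Gapdh* alone (-1.10) and with 5 housekeeping genes (-1.37).

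The Ct of *Irf3* was 33.2 in wild-type Mock and 34.2 in IFNAR-/- Mock, 1.80 and 0.80 cycles short of the cap. A wild-type mean of 33.2 may include 1 capped experiment, in which case the Mock level is an upper bound and the direction in wild type is open. In TLR7-/- the Ct was 30.6 in Mock and 30.2 in R848, farther from the cap. Against the plate, *Irf3* was among the lower responses: 12 of 77 readable genes had a lower log2 difference in wild type, 21 of 78 in TLR7-/- and 4 of 69 in IFNAR-/-. In IFNAR-/- no readable gene lay closer to 0. Across the 6 columns *Irf3* spanned 1.52 cycles and *Tbk1* 1.37, against a median span of 2.42 cycles for the 69 genes read in all of them.

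Set against each other within a column, *Irf3* and *Tbk1* need no reference gene. For wild type, *Irf3* minus *Tbk1* was 5.05 cycles with Mock and 5.95 with R848. For IFNAR-/- the same difference was 5.90 with Mock and 6.80 with R848. For TLR7-/- both columns gave 5.60. With R848, transcripts of *Irf3* relative to *Tbk1* were therefore 0.90 cycles lower in wild type and in IFNAR-/-, a 1.87-fold difference in the ratio, and 0.00 cycles different in TLR7-/-. This comparison was chosen after the values were seen, and it carries the late *Irf3* readings of the wild-type and IFNAR-/- Mock columns. A shift of 0.90 cycles is below the 2-fold used for calls.

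**Figure D2:**
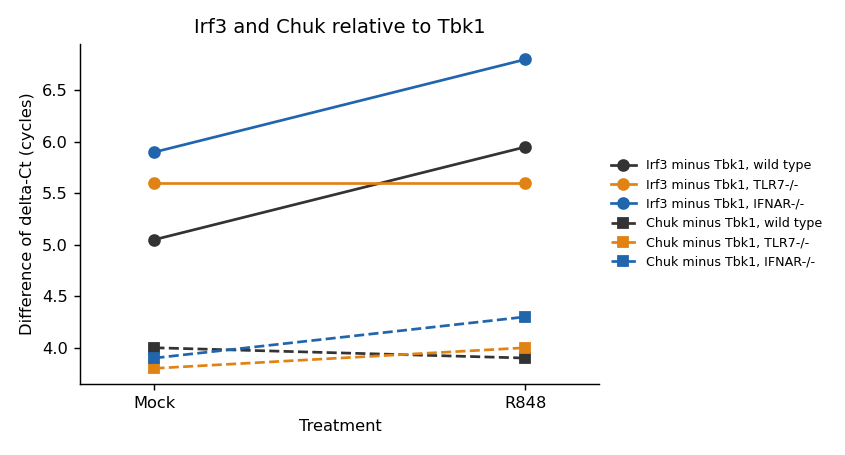
Difference of delta-Ct, in cycles, of *Irf3* minus *Tbk1* (circles, solid lines) and *Chuk* minus *Tbk1* (squares, dashed lines) in Mock and R848, with 1 value per strain and treatment. The *Irf3* line is 0.90 cycles higher at R848 in wild type and IFNAR-/- and level at 5.60 in TLR7-/-.

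*Ifnb1*, the product, was at the cap in 5 of the 6 columns and was read below it in wild-type R848 alone. There its delta-Ct was 14.37. Since *Tlr5* stood at 16.67 in the same column, the mean Ct of *Ifnb1* was at most 32.7, so at least 1 of the 2 wild-type R848 experiments gave a reading below 35. In wild-type Mock the level was at or below a delta-Ct of 13.15. That bound lies above the R848 level, so the direction in wild type is open. In TLR7-/- and IFNAR-/- both columns were at the cap and the response has no direction either. Genes with an open direction numbered 5 (5.95%) in wild type, 5 (5.95%) in TLR7-/- and 9 (10.7%) in IFNAR-/-. The authors' deposited table lists fold differences of 0.43, 0.69 and 0.18 for *Ifnb1* in the 3 strains. In TLR7-/- and IFNAR-/- these equal the gap in reference Ct alone (2 to the power of minus the 0.53 and 2.50 cycles) and hold no reading of *Ifnb1*.

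Between strains the R848 columns allow a bound. An *Ifnb1* level of 14.37 would have been read in TLR7-/- R848, whose limit was 15.63. Wild-type R848 was therefore at least 2.40-fold above TLR7-/- R848, by 1.26 cycles. Against IFNAR-/- R848, with a limit of 14.93, it was at least 1.47-fold above, by 0.56 cycles, and against TLR7-/- Mock at least 1.66-fold, by 0.73 cycles. In wild-type Mock and IFNAR-/- Mock the same level would have gone unread, since their limits fell short of it by 1.22 and 1.94 cycles. The bound against TLR7-/- R848 ranged from 1.00 to 1.40 cycles over the 5 other scalings tried, and that against IFNAR-/- R848 from 0.40 to 0.80. Among the 84 genes 12 (14.3%) were at least 2-fold higher in wild-type R848 than in TLR7-/- R848. These bounds use the wild-type mean as deposited. If 1 of its experiments was capped, the mean level was lower than shown and the bounds may not hold for it.

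**Figure D3:**
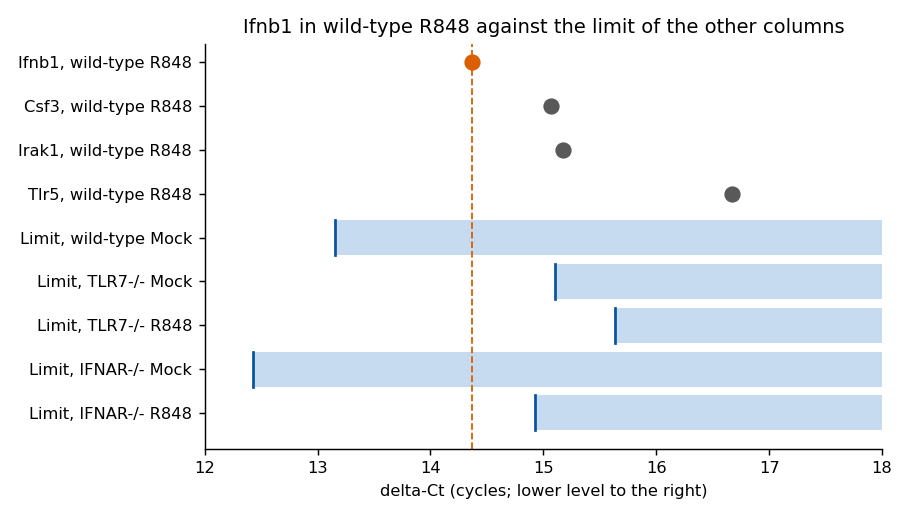
Delta-Ct in cycles (lower level to the right) of *Ifnb1* and of the 3 other genes at the cap in the same 5 columns, in wild-type R848 (points), and the detection limit of each of the other columns (blue lines, with levels that could not be read shaded). The dashed line at 14.37, *Ifnb1* in wild-type R848, lies left of the TLR7-/- limits and of the IFNAR-/- R848 limit, and inside the shaded range of the wild-type and IFNAR-/- Mock columns.

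The other 3 genes at the cap in all of the same 5 columns were *Csf3*, a neutrophil growth factor, *Irak1*, a kinase of MyD88 signalling, and *Tlr5*, the flagellin receptor, named after their values were seen. In wild-type R848 they stood at 15.07, 15.17 and 16.67. *Ifnb1* thus had the lowest delta-Ct of the 4, 0.70 cycles short of that of *Csf3*, in the column with the farthest limit. *Ifnb1* has no introns, so residual genomic DNA would be amplified like its transcript. Per the labels the RNA was cleared of DNA, the genomic DNA control well has no value in the tables, and a part of such DNA in the reading was not tested.

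Levels of the readable members also differed between strains under the same treatment. In Mock, *Tbk1* was 2.30-fold lower in wild type than in TLR7-/- (6.30 against 5.10), where 41 of 84 genes (48.8%) were likewise 2-fold lower. With R848 it was 2.06-fold lower in wild type than in TLR7-/- and 2.53-fold lower than in IFNAR-/-, where 25 genes (29.8%) were 2-fold lower in each case. The 2.06-fold difference is a log2 difference of -1.04, just past 2-fold. Scaling to *Hprt1* alone would bring both *Tbk1* differences against TLR7-/- below 2-fold. Levels of *Tbk1* and *Irf3* between strains were not recomputed under the other scalings. *Irf3* was 2.62-fold lower in wild-type R848 than in TLR7-/- R848, and its other pairs under one treatment were within 2-fold. The order of *Tbk1* from high to low was IFNAR-/- R848, TLR7-/- Mock, TLR7-/- R848, IFNAR-/- Mock, wild-type R848 and wild-type Mock, with neighbours 0.03 to 0.54 cycles apart. The order of *Irf3* from high to low was TLR7-/- Mock, TLR7-/- R848, wild-type Mock, IFNAR-/- Mock, IFNAR-/- R848 and wild-type R848. Its neighbours were 0.10 to 0.52 cycles apart. No spread is available to judge either order by. With the 3 reference genes, differences of response between wild type and the deficient strains stayed below 1 log2 unit. For *Tbk1* they were 0.16 against TLR7-/- and -0.77 against IFNAR-/-, for *Irf3* -0.74 and -0.77. Both differences against IFNAR-/- changed sign and came close to 0 after centring, at 0.05 with the median gene of each column and 0.08 with the median log2 difference. With *Gapdh* alone both were -1.0. The *Irf3* difference against TLR7-/- was -1.0 with *Gapdh* alone, -1.13 with 5 housekeeping genes, -1.75 with the median gene and -1.08 with the median log2 difference. Over the plate, with the 3 reference genes, differences of 1 unit or more were seen for 33 of 75 genes (44%) against TLR7-/- and 34 of 69 (49.3%) against IFNAR-/-.

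Upstream on the plate were receptors, adaptors and signalling genes of the TRIF branch that leads to TBK1 (*Tlr3*, *Tlr4*, *Ticam1*, *Ticam2*) and of the MyD88 branch (*Tlr7*, *Tlr9*, *Myd88*, *Irak1*, *Traf6*). Of these 9, 8 were at least 2-fold higher with R848 in wild type, none in TLR7-/- and 8 in IFNAR-/-, where 38.1%, 4.76% and 53.6% of all 84 genes were. *Irak1* was at the cap in Mock throughout. The median log2 difference was 2.48, 0.17 and 2.20, beside 0.41, 0.07 and 1.25 for all 84 genes. *Ticam1*, whose product TRIF leads to TBK1, went from 8.60 in Mock to 6.32 in R848 in wild type, from 7.10 to 6.93 in TLR7-/- and from 10.83 to 7.13 in IFNAR-/-. *Ticam2*, the bridging adaptor of TLR4 to TRIF, had log2 differences of 1.33, 0.27 and 3.10. After centring on the median log2 difference, 6 of 9 in wild type and 4 of 9 in IFNAR-/- were still 2-fold higher. After centring on the median gene of each column, 6 in wild type and 3 in IFNAR-/- were, and the median in IFNAR-/- was 0.15. *Tlr7*, counted here and in lists below, was also read in TLR7-/- spleens, at a delta-Ct of 9.2 in Mock and 9.33 in R848. Those levels were higher than in wild-type Mock and near the 9.47 of wild-type R848. The plate therefore did not show the TLR7 deficiency at the transcript level. The reason for these *Tlr7* readings was not tested.

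The kinases at the level of TBK1 lay close to 0 in wild type against the 3 reference genes. *Chuk* and *Ikbkb* encode IKK-alpha and IKK-beta, which activate NF-kB. In wild type the 3 kinases had log2 differences of 0.03 (*Tbk1*), 0.13 (*Chuk*) and 0.18 (*Ikbkb*), all of them below 0 when scaled to *Gapdh* alone, to *Hprt1* alone, to 5 housekeeping genes or to the median gene. With the median gene of each column all 3 were 2-fold lower, with a median of -1.10. In IFNAR-/- *Ikbkb* differed by 2.00, from 7.73 in Mock to 5.73 in R848, and *Chuk* by 0.40. In TLR7-/- all 3 lay between -0.33 and 0.17. *Chuk* minus *Tbk1* stayed between 3.80 and 4.30 cycles in all 6 columns.

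**Figure D4:**
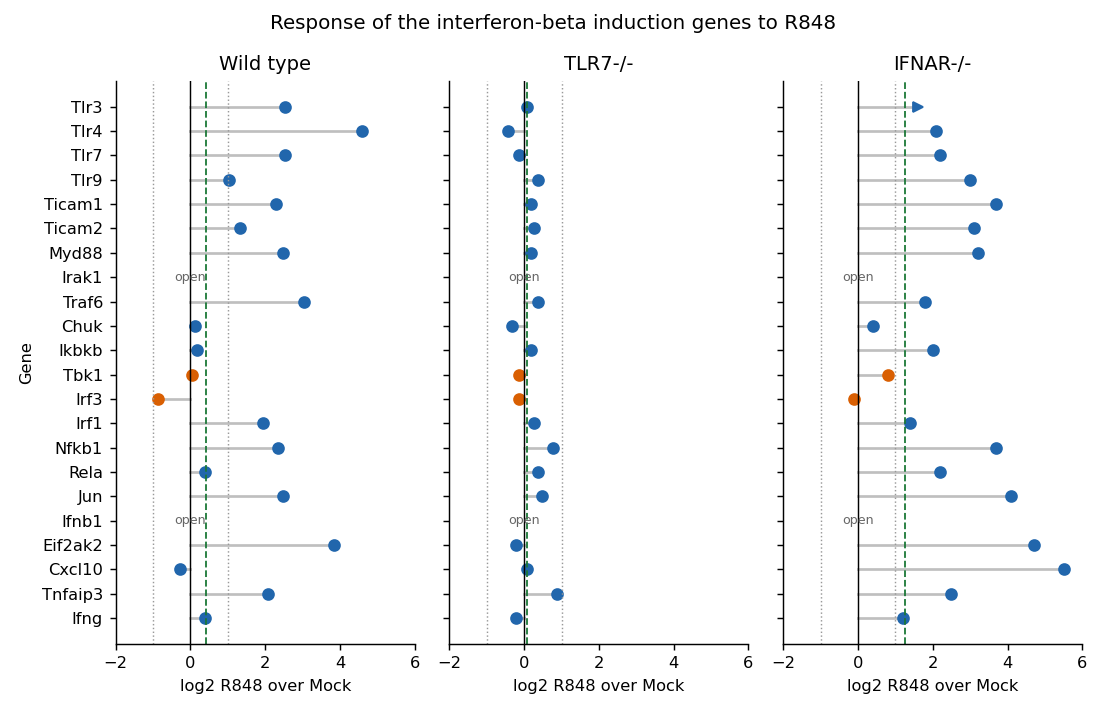
Log2 difference of R848 over Mock for genes of interferon-beta induction in each strain, 1 value per gene, with *Tbk1*, *Irf3* and *Ifnb1* in orange. Dotted lines mark 2-fold, the green dashed line is the median of all 84 genes, an arrowhead is a lower bound and "open" a direction hidden by the cap; *Tbk1* and *Irf3* lie between -0.87 and 0.80 while *Ticam1*, *Myd88*, *Jun* and *Nfkb1* lie between 2.28 and 4.10 in wild type and IFNAR-/-. *Chuk* (0.13), *Ikbkb* (0.18), *Rela* (0.38), *Ifng* (0.38) and *Cxcl10* (-0.27) in wild type, and *Chuk* (0.40) in IFNAR-/-, lie in the range of *Tbk1* and *Irf3*.

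*Irf3* and *Irf1* are the interferon regulatory factors on the plate, and they lay on opposite sides of 0 in wild type. *Irf1*, itself induced by interferons, went from 4.45 in Mock to 2.52 in R848 (log2 difference 1.93), against -0.87 for *Irf3*. In TLR7-/- *Irf1* differed by 0.27, and in IFNAR-/- by 1.40, which fell below 2-fold with 5 housekeeping genes and after centring. Of the 4 other genes whose products are known to bind the *Ifnb1* promoter, 3 were at least 2-fold higher in wild type, beside 38.1% of the plate: *Jun*, an AP-1 subunit (2.48), *Nfkb1*, encoding an NF-kB subunit (2.33), and *Irf1*. *Rela*, encoding the NF-kB subunit p65, stood at 0.38 there and at 2.20 in IFNAR-/-, where all 4 were 2-fold higher, beside 53.6% of the plate. Centring on the median gene of each column left 2 of 4, *Nfkb1* and *Jun*, in both strains. In TLR7-/- none of the 4 reached 2-fold, the largest being *Nfkb1* at 0.77.

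Genes known to respond to interferon were also on the plate. Of 6 (*Eif2ak2*, *Cxcl10*, *Irf1*, *Tlr3*, *Tlr7*, *Myd88*), 5 were at least 2-fold higher with R848 in wild type, none in TLR7-/- and all 6 in IFNAR-/-, the strain that lacks the type I interferon receptor. The shares of the plate were 38.1%, 4.76% and 53.6%. *Cxcl10*, encoding a chemokine that draws activated T cells, went from 2.00 in Mock to 2.27 in R848 in wild type and from 5.53 to 0.03 in IFNAR-/-. After centring on the median log2 difference the counts were 5 in wild type and 3 in IFNAR-/-. *Eif2ak2*, encoding the antiviral kinase PKR, went from 9.80 to 5.97 in wild type, from 8.30 to 8.53 in TLR7-/- and from 8.83 to 4.13 in IFNAR-/-. *Ifng*, encoding the type II interferon, had log2 differences of 0.38, -0.23 and 1.20. *Tnfaip3*, encoding A20, an inhibitor of NF-kB and interferon induction, had 2.08, 0.87 and 2.50. The lists overlap and are not separate evidence.

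The genes whose 6-column pattern was nearest to each readable member were found by the mean absolute difference in cycles after each gene's own mean was subtracted, over 68 other genes. For *Tbk1* they were *Chuk* (0.117 cycles), *Hrb* (0.233), *Il1b* (0.250) and *Ifng* (0.275), against a median of 0.669 over all genes. For *Irf3* they were *Il12a* (0.217), *Nfkbib* (0.283), *Nfkbia* (0.322) and *Ripk2* (0.333), against a median of 0.671. The columns share their reference genes and there are only 6 of them.

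Plate genes linked to cell types were counted in wild type, and some sums are also given for the deficient strains. Of 3 B cell-associated genes (*Btk*, *Cd80*, *Cd86*) 2, *Btk* and *Cd80*, were at least 2-fold lower with R848, beside 13.1% of the plate. The summed level of the 3 was 9.84% of the reference level in Mock and 3.94% in R848. *Btk* had the lowest delta-Ct of the 3 under both treatments (4.1 and 5.67) and so was the largest part of each sum. Both deficient strains had *Btk* at the cap with either treatment, at limits of 12.43 to 15.63. The reason for this gap between strains was not tested. In neither deficient strain was any of the 3 found 2-fold lower. With *Btk* at the cap, their sums in Mock and R848 were 11.6% and 7.50% in TLR7-/-, and 5.93% and 9.55% in IFNAR-/-. Of 7 monocyte, macrophage and neutrophil genes 3 were at least 2-fold higher in wild type, near the plate's 38.1%, and 1 of 7 was with 5 housekeeping genes. The 7 had a summed level of 36.6% in Mock and 43.3% in R848. That sum was 43.8% and 42.2% in TLR7-/-, and 21.5% and 48.4% in IFNAR-/-. *Tlr7* and *Tlr9*, which plasmacytoid dendritic cells express, summed to 3.15% and 6.52% in wild type. Most of both sums was *Tlr9*, whose delta-Ct was far below that of *Tlr7* (3.97 against 9.47 in R848). Both genes were 2-fold higher with R848, *Tlr9* only just (log2 difference 1.03). Of the pair only *Tlr7* was with *Hprt1* alone, *Gapdh* alone, 5 housekeeping genes or either centring, and both were with *Hsp90ab1* alone. The part of cell composition in the *Irf3* and *Ifnb1* values was not tested.

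**Figure D5:**
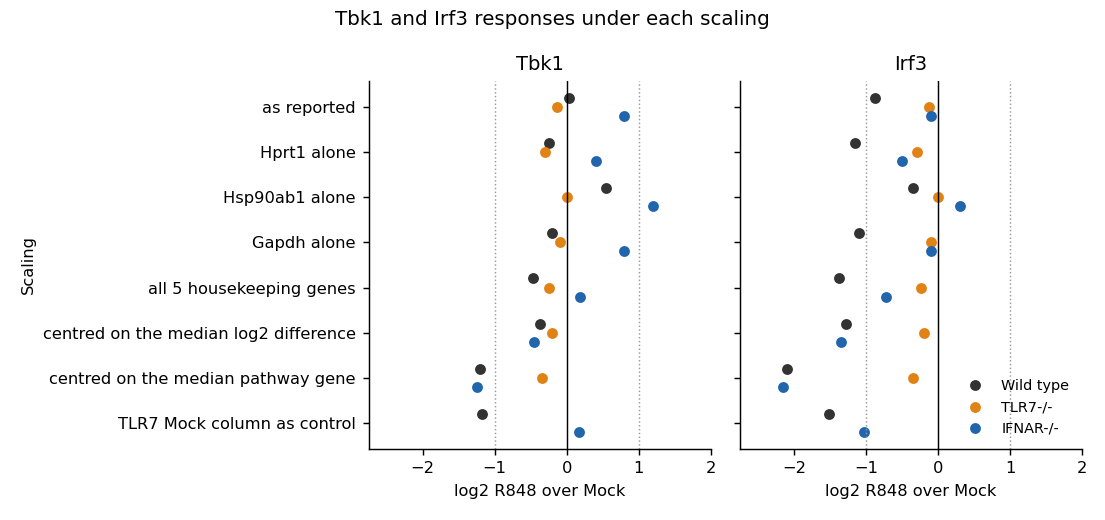
Log2 difference of R848 over Mock for *Tbk1* and *Irf3* under each scaling, with 1 point per strain; dotted lines mark 2-fold. The wild-type *Irf3* points lie below 0 in all 8 settings, from -2.10 to -0.35, while *Tbk1* points lie on both sides of 0.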

How the data were processed

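Transcripts in pooled mouse spleen RNA were read by real-time PCR, with 50 ng of RNA per reaction per the labels' protocols. The authors' deposited tables, 1 per strain, hold delta-Ct, a log2 measure in cycles. According to the series' design text, any Ct past 35 or missing was replaced by 35, *Hprt1*, *Hsp90ab1* and *Gapdh* served as reference, and the 2 wild-type experiments were summarised. A further deposited column is the authors' ratio (fold difference) between R848 and Mock, which matched the delta-Ct values for 89 of 89 genes in each table (within 0.02 cycles or 0.005 of a fold). Another 6 columns of per-sample values repeat this information and were not used.

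Responses are log2 differences, the Mock delta-Ct less the R848 delta-Ct, called at 2-fold. The detection limit was the highest delta-Ct of a column, shared by 5 to 14 genes outside wild-type R848. With 1 value per treatment in the tables used here, the test planned for separate wild-type experiments was not run. The calling of directions was run on simulated data with the same cap, without reading noise and without averaging of experiments. That run checks how the rule was coded. It cannot show how late readings or a mean with a capped experiment behave. Named genes were the members, all genes of the listed pathway groups, the housekeeping genes and, for *Tbk1* and *Irf3*, the 4 genes of nearest pattern. The members and lists were chosen with earlier results of these data known. Python 3.11.15 and pandas 2.3.3 were used. Lists were also fixed for T and NK cell genes and stromal genes. Of the T and NK cell genes 2 of 3 were lower in wild type, beside 13.1% of the plate. Of the stromal genes 1 of 3 was higher, near the plate's 38.1%, and 0 of 3 with 5 housekeeping genes.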

Additional observations from a re-analysis of the deposited data

Results flagged for a closer look

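The *Tbk1* response ran in opposite directions in the strains sampled once per treatment. Its log2 difference was -0.13 in TLR7-/- and 0.80 in IFNAR-/-, which are 0.93 apart. The difference was not tested, and after centring on the median log2 difference both values lay below 0, at -0.20 and -0.45.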

How the results depend on the processing

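The 12 values of *Tbk1*, *Irf3* and the *Ifnb1* bounds were recomputed under 74 alternatives in all, and 55 kept their side of 2-fold, both *Ifnb1* bounds included. Signs changed in 17, all of *Tbk1*, of *Irf3* in IFNAR-/- or of the *Irf3* response in wild type minus that in IFNAR-/-. Centring each column on its median gene gave *Tbk1* log2 differences of -1.20 in wild type and -1.25 in IFNAR-/-, and *Irf3* differences of -2.10 and -2.15. Centring on the median log2 difference, chosen after seeing the data, gave *Irf3* differences of -1.28 in wild type and -1.35 in IFNAR-/-. With TLR7-/- Mock as control, *Tbk1* stood at -1.17 in wild type, and *Irf3* at -1.52 in wild type and -1.03 in IFNAR-/-. *Irf3* in wild type was -1.15 with *Hprt1* alone, -1.10 with *Gapdh* alone and -1.37 with 5 housekeeping genes, and *Tbk1* in IFNAR-/- was 1.20 with *Hsp90ab1* alone. The wild-type response of *Irf3* minus that of TLR7-/- was -1.0 with *Gapdh* alone, -1.13 with 5 housekeeping genes, -1.75 with median genes and -1.08 with median log2 differences. With *Gapdh* alone, wild type minus IFNAR-/- was -1.0 for *Tbk1* and for *Irf3*. The cause was not tested. Of the plate, 15 genes were 2-fold higher and 32 lower in wild type with median genes, and 14 and 29 in IFNAR-/-. With *Hsp90ab1* alone the counts were 5 lower in wild type, 7 higher in TLR7-/- and 1 lower in IFNAR-/-. With 5 housekeeping genes 17 were lower in wild type and 5 in IFNAR-/-, and with *Hprt1* alone 5 in IFNAR-/-; there, 1 was lower without capped genes. At 3-fold the counts were 21 higher and 2 lower in wild type, 1 and 1 in TLR7-/- and 1 lower in IFNAR-/-, and at 1.5-fold 10 higher and 6 lower in TLR7-/- and 5 lower in IFNAR-/-. No paired analysis was possible because the wild-type table used here gives only the mean of its experiments, and for the same reason no replicate could be left out.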
